A study of Homo sapiens with 79 samples.

Results

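The Notch pathway was followed through 10 listed genes, the ligands DLL1, DLL3, DLL4 and JAG1, the receptors NOTCH1 and NOTCH3, the target genes HES1, HES5 and HEY1, and HES6. The genes were found by symbol, with no threshold on a measured value. Of the 10, 8 were among the 24414 genes of the table of 1976 cells, and DLL1 and HES5 were not analysed here. The cells came from retinal organoids, layered aggregates that resemble developing retina, grown from H9, an established human embryonic stem cell line that carries a CRX-GFP reporter. The organoids were dissociated at day 60, day 90 or day 200 of differentiation, and cells were captured on Fluidigm C1 chips for mRNA sequencing. The paper describes its cDNA libraries as full length. Day 60 filled 1 chip with 578 cells, day 90 filled 1 chip with 661 cells, and day 200 filled 2 chips, chip a with 356 cells and chip b with 381 cells. All groups shared the line and the culture, in which Y27632 was present at the start and foetal calf serum, T3, taurine and retinoic acid were added later. The labels name a single line and give no number of organoids per chip, so chip and age cannot be told apart at day 60 and day 90.

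Notch signalling passes between touching cells. A ligand on one cell binds a receptor on its neighbour, the receptor is cut, and its intracellular part enters the nucleus and, with the DNA-binding protein RBPJ, switches on repressor genes of the HES and HEY families. In the developing retina, cells that receive the signal keep HES1 and stay progenitors or become Müller glia, while proneural transcription factors drive neuron formation and raise Delta ligands in the cells that leave that state. HES6 stands apart in its family, since it opposes HES1 and is switched on by proneural factors.

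The promoters of HES1, HES4 and HES6 are shown because HES1 and HES6 carried the main contrast between cells, and HES4 is a second target with the same RBPJ letters. Windows from 250 bases before to 50 bases after the transcription start were taken from RefSeq on GRCh38.p14, 5′ to 3′ on the strand of the gene, and 6 of the 8 members matched a window. The letters GTGGGAA (bound by RBPJ), CAGCTG (an E-box, the kind of site proneural factors bind) and CACNAG (an N-box, the kind of site HES repressors bind) were searched on both strands, and every match is in capitals. The HES1 window is chr3:194135898-194136197 on the plus strand.
HES1 promoter: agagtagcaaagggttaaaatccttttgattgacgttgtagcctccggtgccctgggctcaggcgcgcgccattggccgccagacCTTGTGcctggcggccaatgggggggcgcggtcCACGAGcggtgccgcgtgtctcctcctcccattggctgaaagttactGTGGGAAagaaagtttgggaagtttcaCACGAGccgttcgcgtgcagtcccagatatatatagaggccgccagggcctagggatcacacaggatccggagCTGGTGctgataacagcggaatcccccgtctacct
The HES4 window is chr1:1000048-1000347 on the minus strand.
HES4 promoter: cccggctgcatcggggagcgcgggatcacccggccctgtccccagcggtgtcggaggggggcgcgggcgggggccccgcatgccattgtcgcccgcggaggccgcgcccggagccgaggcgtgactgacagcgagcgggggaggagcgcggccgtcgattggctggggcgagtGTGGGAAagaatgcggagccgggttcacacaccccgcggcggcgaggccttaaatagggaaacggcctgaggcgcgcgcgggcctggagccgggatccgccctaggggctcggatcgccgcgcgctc
The HES6 window is chr2:238239989-238240288 on the minus strand.
HES6 promoter: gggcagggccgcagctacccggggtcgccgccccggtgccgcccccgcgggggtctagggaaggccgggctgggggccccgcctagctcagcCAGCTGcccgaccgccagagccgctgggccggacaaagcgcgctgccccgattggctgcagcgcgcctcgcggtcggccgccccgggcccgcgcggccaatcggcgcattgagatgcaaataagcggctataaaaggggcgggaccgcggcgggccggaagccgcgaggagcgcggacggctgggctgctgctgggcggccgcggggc

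The HES1 window held GTGGGAA at position -85 from the start and 4 N-boxes at positions -165, -132, -58 and 15. The HES4 window held GTGGGAA at position -77. The HES6 window held neither of these and had an E-box at position -158. Of 35116 promoter windows of this length, 6.25% held GTGGGAA, 17.9% held CAGCTG and 38.03% held CACNAG, so such a match is a description of the letters and not of a bound site.

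The deposited values were raw counts of reads, given here as CPM, the counts of a gene scaled to a common total of the reads of all genes in the same cells. Ranges in parentheses are 95% intervals, exact Poisson where reads were summed and Clopper-Pearson (exact binomial) where cells were counted. They cover counting error only, since no molecular identifiers were used and several reads can come from one molecule. Each chip has columns with their own library, 19 at day 60 and 20 on each other chip, with column totals between 3414268 and 7999822 reads. Neither the columns nor the cells of a chip stand for cultures of their own. The 2 day 200 chips were the only repeat of a day and no test between days could be made. Chip a stood apart from chip b, with a median of 1667 against 2778 detected genes per cell at 50000 reads and 24 against 1 called doublets, and results for day 200 are therefore given for both chips. The chips shared up to 40 row barcodes, which the system reuses, but no cell name and no identical cell.

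PAX6, a defining gene of retinal progenitors and several retinal neurons, was the highest of 8 progenitor markers on every chip, between 389 and 467 CPM. Endothelial cells also use DLL4, NOTCH1 and HEY1, so their markers are given here. PECAM1 was at 3.31 CPM at day 60 and at 0 on the other chips, TEK was at 0 on all chips except 0.717 CPM at day 90, and CDH5 was at 0 on all chips except 2.06 CPM on chip b. The 6 endothelial markers summed to 35.9 CPM at day 60, 57.1 for day 90, 126 for chip a and 153 for chip b, and KDR made up most of it from day 90 on. The 6 mural markers summed to between 33.0 and 93.6 CPM. The part of such cells in the results below was not tested.

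A gene was counted as past the fold when log2(CPM + 1) differed at least 2-fold between days, for day 200 on both chips in the same direction, among 12365 genes with a mean of at least 5 CPM over the 4 chips. Of the 8 members 7 entered this count, and DLL4 was below the minimum. From day 60 to day 90, 1 of the 7 members was higher, HEY1, against 10.5% of all genes, and 0 were lower, against 6.88%. From day 60 to day 200, 1 of the 7 was higher, HEY1 again, against 7.7% of all genes, and 1 was lower, HES6, against 3.23%. None of the 7 differed 2-fold between chip a and chip b, against 12.9% of all genes. The median log2 ratio of the 7 members was -0.41 at day 90 and 0.01 at day 200, where the median over all 12365 genes was 0.02 and 0.10. In sums over a chip, fewer cells of a type and less RNA per cell cannot be told apart.

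**Figure D1:**
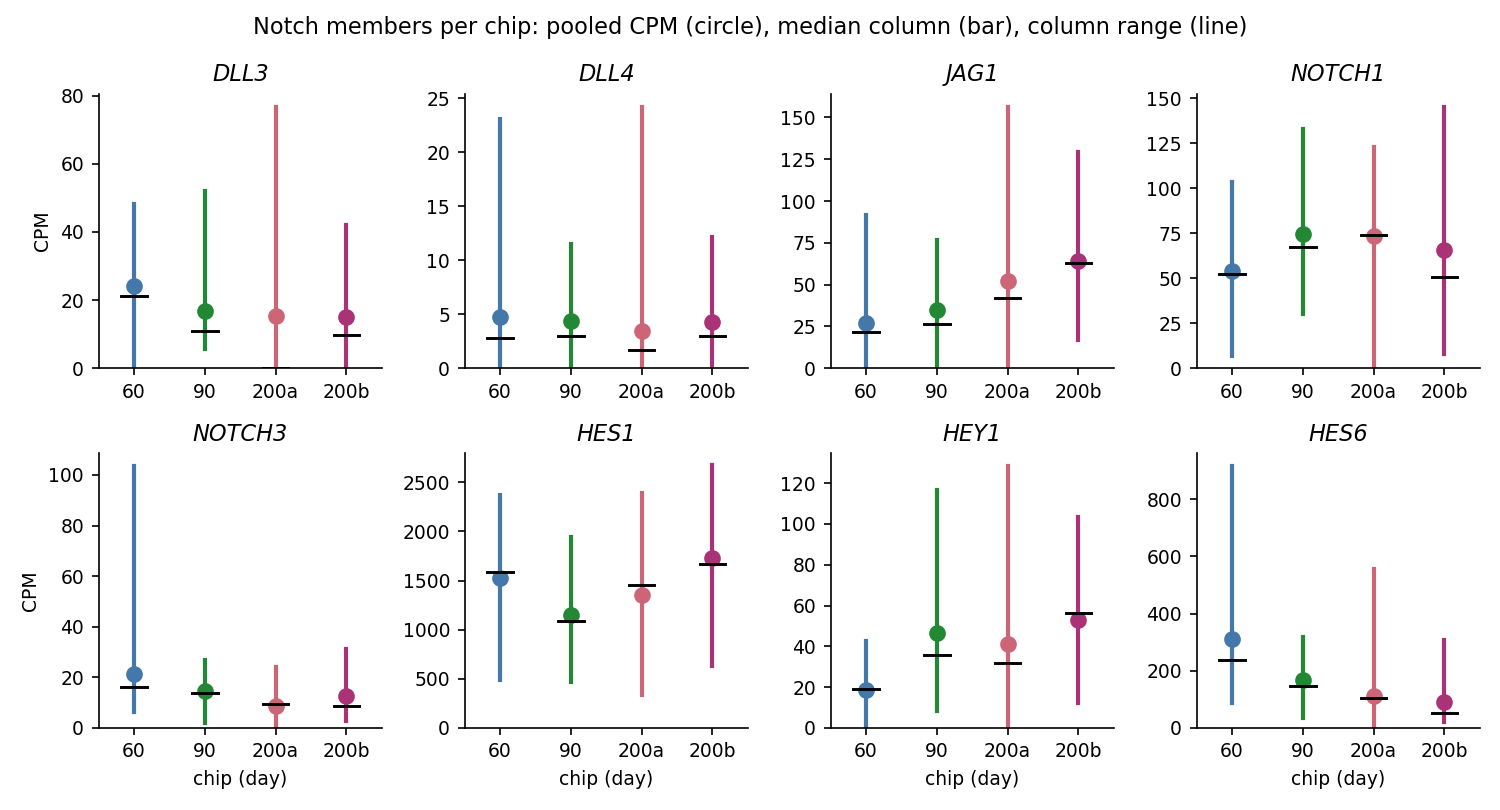
Level of each member on the 4 chips (x axis, 60, 90, 200a and 200b for the days and the day 200 chips) in CPM (y axis, from 0, a scale of its own for each gene). Circles are the pooled level of the chip, short bars the median column and vertical lines the lowest to the highest column. HES6 is highest at day 60, HEY1 is lowest there, and the column ranges of the chips overlap for every gene.

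Gene positions are those of GRCh38. DLL3 lies at chr19:39498895-39508481, DLL4 at chr15:40929340-40939073 and JAG1 at chr20:10637684-10673999. NOTCH1 lies at chr9:136494433-136546048, NOTCH3 at chr19:15159038-15200995, HES1 at chr3:194136148-194138732 and HES6 at chr2:238238267-238240662.

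Of the ligands, DLL3 was lower after day 60 by less than the fold. DLL3, a Delta-like protein that acts mostly inside the cell that makes it, was at 23.99 CPM (23.1 to 24.9) at day 60, 16.8 (16.0 to 17.5) for day 90, 15.4 (14.6 to 16.2) for chip a and 15.1 (14.3 to 15.9) for chip b. The log2 ratio to day 60 was -0.49 at day 90, -0.61 for chip a and -0.64 for chip b. The day 200 chips lay close together in level but not in how the reads were spread. On chip a 11 of 20 columns had no DLL3 read and the 10 highest cells held 89.2% of its reads, while on chip b 6 columns had none and the 10 highest cells held 59.1%. After each cell was thinned to 50000 reads, 19.4% of cells (16.2 to 22.8) had a DLL3 read at day 60, 12.5% (10.1 to 15.3) for day 90, 4.21% (2.38 to 6.85) for chip a and 10.2% (7.38 to 13.7) for chip b. Without thinning the shares were 23.01%, 17.4%, 5.90% and 12.9% in the same order.

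DLL4, a Delta-like ligand that activates receptors on neighbouring cells, was near the lower limit of what these reads can resolve. It was at 4.76 CPM at day 60, 4.35 for day 90, 3.48 for chip a and 4.29 for chip b, and between 4.49% and 6.82% of cells had a read of it on any chip at 50000 reads. The intervals of these shares overlapped each other and that of RPE-like cells, 3.06% (0.636 to 8.69), which serve as an assumed background below. Of 248 cells with DLL3 and 112 with DLL4, 14 had both, and the correlation of the pair across cells was near 0 on every chip, between -0.04 and 0.04.

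JAG1 was higher after day 60. JAG1, a ligand of the Jagged family, was at 26.9 CPM (25.9 to 27.9) at day 60, 34.8 (33.7 to 35.9) for day 90, 52.3 (50.9 to 53.8) for chip a and 64.2 (62.6 to 65.9) for chip b. Both day 200 chips lay above both earlier chips, with log2 ratios to day 60 of 0.94 for chip a and 1.23 for chip b, so the fold was passed on chip b only. As a mean over cells in place of a sum of reads, the log2 ratio of day 200 to day 60 was 0.78 in place of 1.09. Chip b had a JAG1 read in 21.8% of its cells (17.7 to 26.3), above the intervals of the other 3 chips, whose shares were 12.3%, 13.0% and 11.2%. JAG1 and an antisense-strand gene overlap at this locus, and the counting named no strand setting.

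The receptors differed from each other. NOTCH1, the main receptor of retinal progenitors, was at 54.1 CPM at day 60, 74.8 for day 90, 73.5 for chip a and 65.6 for chip b, with log2 ratios to day 60 between 0.28 and 0.46. Its columns spanned from 6.68 to 104 CPM at day 60 and from 0.234 to 123 on chip a, so the days overlapped widely. NOTCH3 was at 21.2 CPM (20.3 to 22.1) at day 60, 14.4 (13.7 to 15.1) for day 90, 8.61 (8.03 to 9.21) for chip a and 12.4 (11.7 to 13.2) for chip b. It was past 2-fold below day 60 on chip a, with a log2 ratio of -1.21, but not on chip b, with -0.72. NOTCH2, the remaining receptor of the wider pathway list that was measured, was at 54.5 CPM at day 60 and between 129 and 145 on the later chips. The near-identical NOTCH2NL copies make its count uncertain, and NOTCH4 was not analysed here.

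HES1, the repressor that Notch signalling switches on in progenitors and glia, was by far the most abundant member. Per kilobase of exon it ranged from 560.1 CPM at day 90 to 840 on chip b, above HES6 with 45.4 to 159 and above each ligand and receptor, none of which passed 9.16 CPM per kilobase. Values per kilobase assume reads spread along the whole transcript, which was not tested, and they make long genes look low if reads lie at one end. Without division by length HES1 was also the highest member on every chip. HES1 was at 1529.7 CPM at day 60, 1153 for day 90, 1357 for chip a and 1729 for chip b. The 2 day 200 chips lay on both sides of day 60, with log2 ratios of -0.17 and 0.18, so day 60 and day 200 did not separate beyond the spread between chips of the same day. Day 90 was the lowest of the 4 chips, with a log2 ratio to day 60 of -0.41, beside a log2 ratio of -0.35 between day 200 chips a and b. Cells differed far more than chips did. At day 60, 30.97% of cells were under 100 CPM and 46.02% were at 1000 CPM or more. Chip a had 48.03% of its cells under 100 CPM and 33.99% at 1000 CPM or more, and chip b had 28.9% and 47.2%.

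HEY1, a second repressor of the pathway, was the member past the fold upward at both later days. It was at 18.4 CPM (17.6 to 19.2) at day 60, 46.8 (45.5 to 48.0) for day 90, 41.3 (40.1 to 42.6) for chip a and 53.02 (51.5 to 54.6) for chip b. The log2 ratio to day 60 was 1.30 at day 90, 1.13 for chip a and 1.48 for chip b. All 3 later chips were above day 60, while columns overlapped, with a highest column of 42.5 CPM at day 60 and a lowest column of 8.09 CPM at day 90. With only cells of at least 150000 reads and at most 10% mitochondrial reads, the day 90 ratio was 0.97 and no longer past the fold, and with 5 CPM in place of 1 CPM added before the log the day 200 difference was not past it on both chips. The share of cells with a read was 11.2% at day 60, 18.3% for day 90, 10.1% for chip a and 23.6% for chip b, so the cells of chip a that had HEY1 were no more frequent than at day 60.

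HES6, the family member that opposes HES1, was lower on every later chip. It was at 309.9 CPM (307 to 313) at day 60, 166 (164 to 168) for day 90, 111 (109 to 113) for chip a and 88.8 (86.8 to 90.8) for chip b. The log2 ratio to day 60 was -0.90 at day 90, -1.47 for chip a and -1.79 for chip b, against a difference of 0.32 between the 2 day 200 chips. Cells with a HES6 read made up 47.6% (43.4 to 51.7) at day 60, 39.7% (35.9 to 43.6) for day 90, 14.9% (11.4 to 19.0) for chip a and 22.8% (18.7 to 27.4) for chip b. The shares had the order of the levels except that the day 200 chips changed places. HES6 also overlaps a gene on the opposite strand.

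The wider pathway list held 58 measured genes, of which 51 passed the minimum of 5 CPM. Of these 2 were past 2-fold upward at day 90, NOTCH2 and HEY1, and 2 downward, HES4 and PSENEN, a subunit of the γ-secretase that cuts the receptor. At day 200, 5 were higher on both chips, NOTCH2, HEY1, HEY2, HES2 and NEURL1, and 3 were lower, HES6, TLE4 and DLK1. The shares of 51 genes can be read against the 10.5%, 6.88%, 7.7% and 3.23% of all genes given above. The median log2 ratio of the 51 genes was 0.13 at day 90 and 0.13 at day 200. None of 9 receptor cleavage genes, 7 genes of the nuclear complex and 7 receptor turnover genes was past the fold at day 200. The same held for 3 ligands and 4 receptor sugar transferases. In lists this small, none past the fold is near the 7.7% and 3.23% of all genes and is not read as a result.

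Outside the members, genes of the list with a mean of at least 5 CPM were ranked by the day 200 chip nearer to day 60, and the 3 with the largest increase were HES2, HEY2 and NOTCH2. HES2 was at 3.32 CPM at day 60, 5.89 for day 90, 25.1 for chip a and 22.7 for chip b. HEY2, a relative of HEY1, was at 4.10, 3.05, 20.1 and 18.2 CPM in the same order. Both were low at the 2 earlier days and high on both day 200 chips. By the same ranking the 3 with the largest decrease were DLK1, TLE4 and NUMBL. DLK1, a non-canonical ligand, was at 57.4 CPM at day 60 and at 16.3 and 9.98 on the day 200 chips. TLE4, a corepressor that works with HES proteins, was at 106 CPM and then at 36.01 and 52.05. NUMBL, a relative of the Notch antagonist NUMB, was at 14.2 CPM and then at 7.53 and 9.19, a difference below the fold. HES4 had a pattern of its own, with 71.1 CPM at day 60, 13.8 for day 90, 45.6 for chip a and 61.6 for chip b. Its highest column at day 90, 27.1 CPM, was below its median column of every other chip. The paper states that the day 90 chip was its first experiment, with more spike RNA and a looser spike filter than the other days. The part of this difference in the HES4 level was not tested.

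Cells were clustered without the Notch genes, so that the classes did not use the members. Of 12 clusters, 9 were named from the marker lists, the Müller glia-like class with 429 cells, cone-like with 245, RGC-like (retinal ganglion cell) with 158, mitotic-like with 105, RPE-like (retinal pigment epithelium) with 98, ECM-like (extracellular matrix) with 85, rod-like with 60, and classes that carry the marker lists of the study's unnamed clusters 7 and 8, with 80 and 50 cells. The other 3 are called by their leading gene, GDF15-led with 286 cells, VSX1-led with 199 and IGFBP6-led with 181. The VSX1-led cluster met the marker count for a rod name with 5 of 10 rod markers, VSX1 among that list, but the name went to the cluster with 8 of them. Levels of a class are given on chips where it had at least 20 cells, as means over those chips, and all of them are descriptions without a test. The classes therefore cover different chips. The SD over chips mixes age with chip and is not a spread between replicates of a day.

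**Figure D2:**
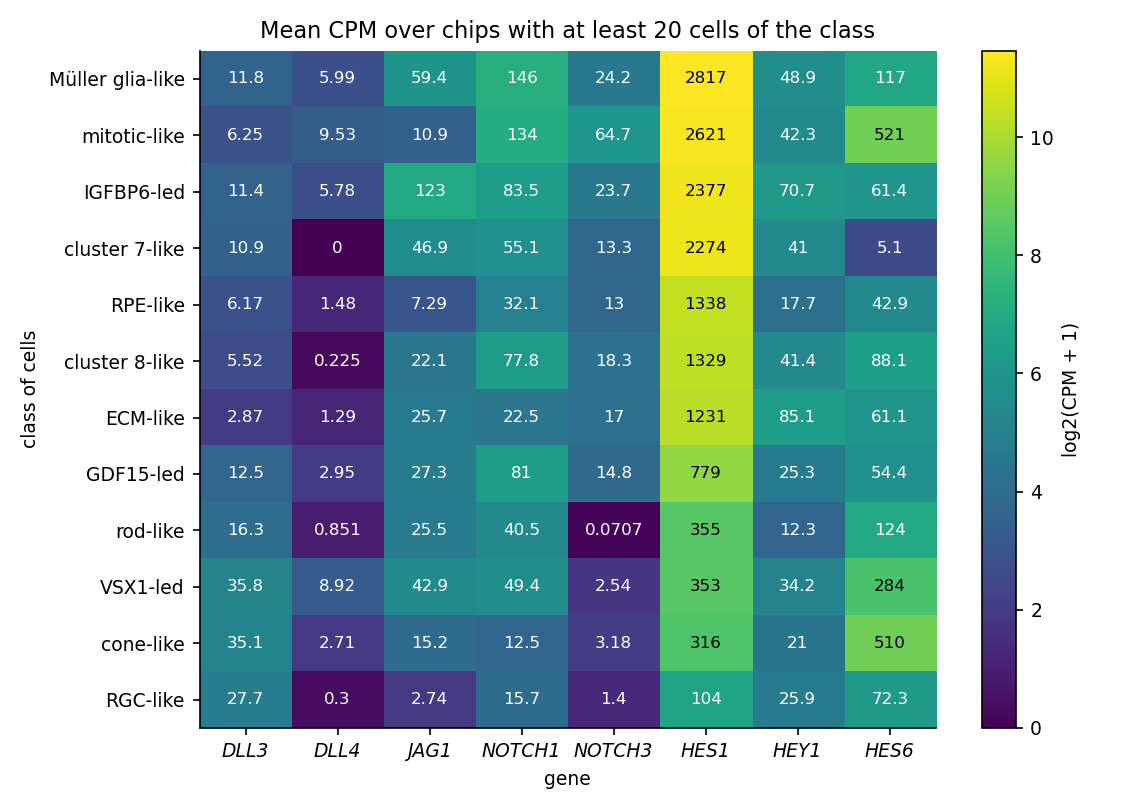
Mean CPM of each member (columns) in each of the 12 classes (rows, ordered by HES1), over the chips on which the class had at least 20 cells, with color as log2(CPM + 1) and the CPM printed in each field. HES1 runs from 2817 CPM in Müller glia-like cells to 104 in RGC-like cells, and DLL3 is highest in 3 of the 4 classes with the least HES1.

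HES1 was highest in the glial and dividing classes and lowest in the neuronal ones, with IGFBP6-led cells near the top. It was at 2817 CPM ± 437 (SD over 4 chips) in Müller glia-like cells, 2621 ± 244 (2 chips) in mitotic-like cells and 2377 ± 392 (3 chips) in IGFBP6-led cells, and these 3 did not differ beyond their spread. RPE-like, cluster 8-like and ECM-like cells were lower, with 1338, 1329 and 1231 CPM, and GDF15-led cells had 779 ± 194 (4 chips). VSX1-led cells had 353 ± 123 (4 chips), cone-like cells 316 ± 173 (4 chips) and RGC-like cells 104 ± 44.6 (3 chips). The log2 ratio of Müller glia-like over cone-like cells was 3.10, and it was at least 2.56 on each of the 4 chips. HES1 reads were present in 47.5% of RGC-like cells and 64.3% of cone-like cells at 50000 reads, so a single read of this gene says little about a cell.

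Both receptors were highest in classes that also had much HES1. NOTCH1 was highest in Müller glia-like cells with 146 CPM ± 64.4 (4 chips) and mitotic-like cells with 134 ± 69.3 (2 chips), which did not differ beyond their spread, and lowest in cone-like cells with 12.5 ± 3.77 (4 chips). NOTCH3 was highest in mitotic-like cells, with 54.1 CPM at day 60 and 75.3 at day 90, above the highest Müller glia-like chip, which had 29.6. VSX1-led, cone-like and RGC-like cells had between 0.0967 and 6.01 CPM of NOTCH3 on any chip.

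DLL3 was highest in VSX1-led, cone-like and RGC-like cells. It was at 35.8 CPM ± 29.3 (4 chips) in VSX1-led cells, 35.1 ± 13.5 (4 chips) in cone-like cells and 27.7 ± 14.3 (3 chips) in RGC-like cells, which did not differ beyond their spread, against 11.8 ± 3.35 (4 chips) in Müller glia-like cells. VSX1-led cells of chip a had 1 DLL3 read in 43 cells, where those of chip b had 65.7 CPM. Rod-like cells, which are also neuronal, had 2.55 CPM at day 90 and 29.98 on chip a. Cone-like over Müller glia-like cells gave a log2 ratio of 1.44, between 1.18 and 1.72 on the 4 chips. RPE-like cells, assumed here to lack Delta ligands, were taken as the background: 8.16% of them (3.59 to 15.5) had a DLL3 read at the same depth. Müller glia-like cells with 8.90% and mitotic-like cells with 10.5% were not above it, nor was chip a as a whole with 4.21%, while cone-like cells with 23.4% (18.2 to 29.2) and VSX1-led cells with 21.6% (16.1 to 27.98) were above it when all chips were pooled. Of the 98 RPE-like cells 78 were from day 90, and on that chip alone the intervals overlapped, with 8.97% (3.68 to 17.6) in RPE-like, 23.1% (15.4 to 32.4) in cone-like and 20.0% (10.4 to 32.97) in VSX1-led cells. The cone-like share was 45.8% at day 60 and 8.33% on chip a. Chip a held only 9 RPE-like cells, so its shares were set against those of another chip. RGC-like cells with 18.99% (13.2 to 25.98) and rod-like cells with 8.33% (2.76 to 18.4) had intervals that overlapped that of RPE-like cells. ECM-like cells had a lower DLL3 share, 3.61% (0.752 to 10.2), with an interval that overlapped that of RPE-like cells. DLL4 was at 9.53 CPM in mitotic-like cells, 8.92 in VSX1-led cells and 5.99 in Müller glia-like cells, and at 0.30 in RGC-like cells, so it was not paired with DLL3 across classes. A DLL4 read was in 1.27% (0.154 to 4.50) of RGC-like and 7.49% (5.18 to 10.4) of Müller glia-like cells, with intervals apart.

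**Figure D3:**
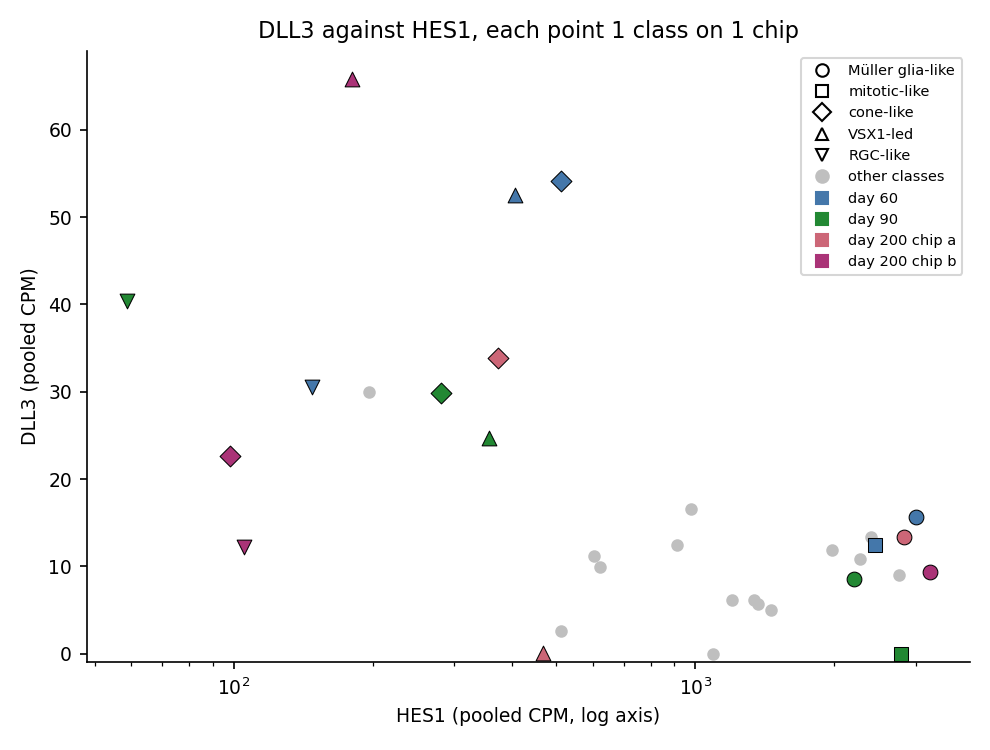
Pooled CPM of DLL3 (y axis) against HES1 (x axis, log scale), each point 1 class on 1 chip with at least 20 cells, with shapes for 5 classes and color for the chip. Müller glia-like and mitotic-like points lie at the right, at or below 15.7 CPM of DLL3, and the highest points, up to 65.7 CPM, belong to VSX1-led and cone-like cells.

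JAG1 was placed unlike either Delta ligand. IGFBP6-led cells had 123 CPM ± 19.4 (3 chips), above Müller glia-like cells with 59.4 ± 31.2 (4 chips) on each of the 3 chips. These cells had JAG1 reads in 37.0% (29.97 to 44.5), against 7.14% (2.92 to 14.2) in RPE-like and 5.06% (2.21 to 9.73) in RGC-like cells. HEY1 was spread over the classes, with 85.1 CPM in ECM-like cells, 70.7 in IGFBP6-led and 48.9 in Müller glia-like cells, and SDs over chips of 48.5, 54.4 and 40.6, so that its order was not resolved. The ECM-like mean covers day 90 and chip b only. In the same order these classes had 50.8, 122 and 105 CPM at day 90, and 119, 75.9 and 45.9 on chip b. HES6 was at 521 CPM in mitotic-like cells (735 at day 60 and 308 at day 90) and at 510.3 ± 369 (4 chips) in cone-like cells, and at 284 ± 101 (4 chips) in VSX1-led cells, against 117 ± 52.1 (4 chips) in Müller glia-like cells and 42.9 in RPE-like cells. The log2 ratio of cone-like over Müller glia-like cells was 2.03 for HES6, and 5.58 when cells were clustered on 30 dimensions in place of 20.

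The differences between days were then read within classes. In the 4 classes that reached 20 cells on the day 60 chip and on each day 200 chip, HES6 was below its day 60 level on both chips in 4 of 4. In cone-like cells it went from 1060.1 CPM at day 60 to 391 at day 90, 302 for chip a and 287 for chip b. In Müller glia-like cells it went from 142 to 179, 76.1 and 72.5 CPM. The mitotic-like class, at 735 CPM of HES6 at day 60 and 308 at day 90, lay below cone-like cells on both chips and held 66 cells at day 60, and 9 and 8 on the day 200 chips.

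In Müller glia-like cells HEY1 and NOTCH1 were above their day 60 level on all 3 later chips. HEY1 was at 9.07 CPM there at day 60, 105 for day 90, 35.5 for chip a and 45.9 for chip b, and it was higher on both day 200 chips in 3 of the 4 classes. In VSX1-led cells it was lower, with 62.5 CPM at day 60, 46.6 on chip b and 1 read on chip a. NOTCH1 in Müller glia-like cells was at 63.001 CPM at day 60, 219 for day 90, 142 for chip a and 158 for chip b, and in VSX1-led cells it was at 68.1, 53.1, 35.7 and 40.5. JAG1 in Müller glia-like cells was at 28.7 and 36.3 CPM at the earlier days and 88.7 and 83.8 on the day 200 chips. HES1 in these cells was at 3014, 2206, 2830.1 and 3218 CPM, with the day 200 chips on either side of day 60. DLL4 in these cells was at 2.03 CPM at day 60 and between 6.88 and 7.83 on the later chips. The make-up of the class differed between days. MKI67, a gene of dividing cells, had a read in 15.4% of Müller glia-like cells at day 60, 4.96% for day 90, 2.02% for chip a and 1.41% for chip b. The paper also reports progenitor genes in its Müller glia cluster. Other cells in the class and other levels in the same cells cannot be told apart.

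**Figure D4:**
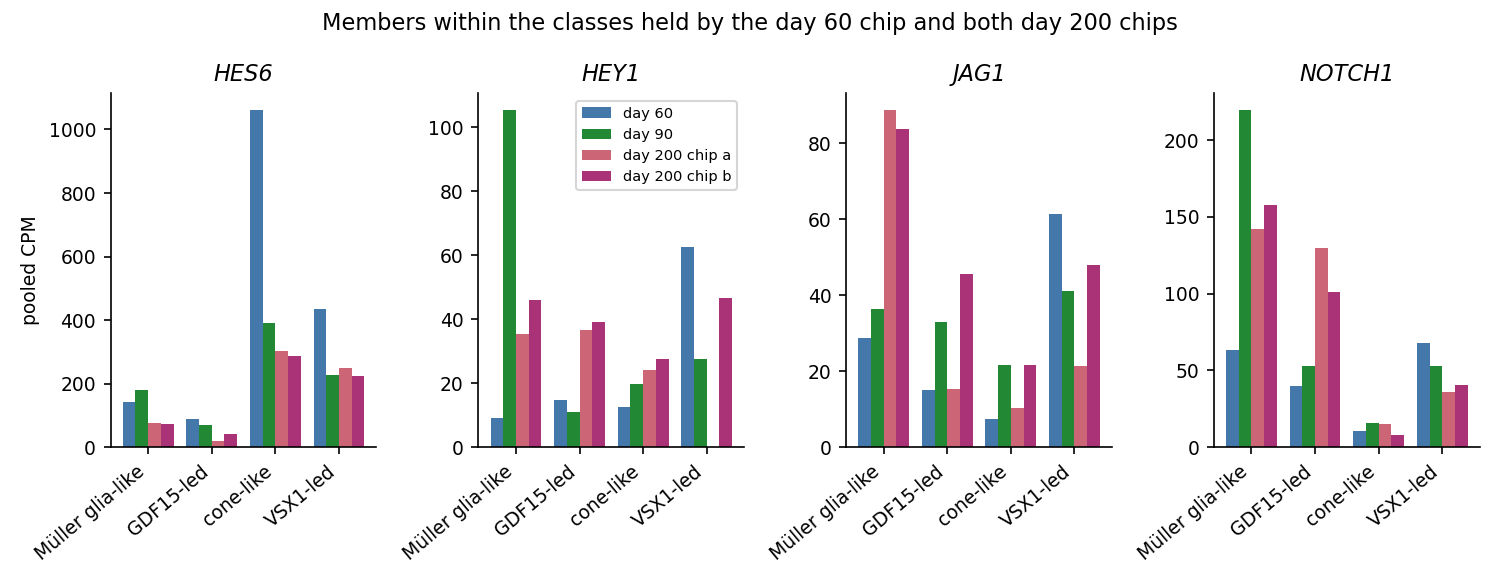
Pooled CPM (y axis, from 0, a scale of its own for each gene) of HES6, HEY1, JAG1 and NOTCH1 in the 4 classes that reached 20 cells on the day 60 chip and on each day 200 chip, with 1 bar per chip. Bars of HES6 at day 60 are above both day 200 bars in all 4 classes, and in Müller glia-like cells the bars of HEY1, JAG1 and NOTCH1 at day 60 are below both day 200 bars.

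Within cells, a cell was called ligand-positive when it had a read of DLL3 or DLL4 at 50000 reads. Ligand-positive cells made up 23.7% (20.3 to 27.4) at day 60, 17.6% (14.7 to 20.7) for day 90, 8.71% (5.99 to 12.1) for chip a and 16.5% (12.9 to 20.7) for chip b. Over both chips the day 200 share was 12.8%, lower than at day 60 by 10.9 percentage points (difference -10.9, interval -15.2 to -6.76, Newcombe). The intervals cover cells only, and those of the 2 day 200 chips did not overlap. RPE-like cells, mostly from day 90, gave 11.2% (5.74 to 19.2) by the same rule. The chip a share was not above that assumed background and the intervals of day 90 and chip b overlapped it.

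Ligand-positive cells held HES6 more often, most clearly at the earlier days. At day 60, 66.4% of 137 ligand-positive cells had a HES6 read against 41.7% of 441 other cells, a difference of 24.7 percentage points (15.2 to 33.3). At day 90 the shares were 51.3% and 37.2%, a difference of 14.1 (4.14 to 23.9). On chip a the difference was 1.36 (-8.63 to 18.2) and on chip b 1.17 (-8.92 to 13.7), so it was not detectable at this depth with 31 and 63 ligand-positive cells. With DLL3 alone the difference was 21.8 (11.6 to 31.1) at day 60, and between 10.4 and 12.3 on the later chips with intervals that all held 0. When each ligand-positive cell was set against ligand-negative cells of its own class and chip, the difference over 346 ligand-positive cells was 9.91. Among cone-like cells 80.9% of ligand-positive cells and 60.8% of the others had HES6, and among VSX1-led cells 60.4% and 32.2%. Müller glia-like cells had 41.2% and 25.6%. In the other 4 classes compared the intervals held 0. RGC-like cells had 40.6% and 33.3%, IGFBP6-led 23.3% and 17.9%, mitotic-like 14 of 20 and 58 of 85 cells, and GDF15-led 23.7% and 25.9%. NOTCH1 was also more frequent in ligand-positive cells on all 4 chips, by 2.41 to 7.91 percentage points, with every interval around 0. Matched within class and chip the NOTCH1 difference was 7.39. With DLL3 alone it was below 0 on all 4 chips, between -5.4 and -1.01, and 3.12 when matched. NOTCH3 differed by -10.4 (-16.7 to -2.80) at day 60, with intervals around 0 on the later chips. HEY1 differed by -4.01 to 3.09, with every interval around 0.

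HES1 gave a difference at the higher of the 2 thresholds, and little of it within classes. With 1 read as the threshold, the ligand-positive share minus the other share was -5.57, -3.37, 9.42 and -5.26 percentage points on the 4 chips, and every interval held 0. With DLL3 alone the differences were -5.80, -6.60, -2.25 and -12.6, all below 0 with intervals that held 0, and 1.17 when matched within class and chip. With 5 reads as the threshold for both genes, 46.97% of 66 ligand-positive cells at day 60 had HES1 against 71.9% of 512 others, a difference of -24.9 (-37.03 to -12.4), and on chip b 47.8% of 23 against 72.9% of 358, a difference of -25.1 (-44.2 to -5.27). Day 90 gave -8.09 (-22.2 to 4.68) and chip a -11.6 (-31.9 to 11.8). Matched within class and chip, the difference at 5 reads was -2.28 over all chips, where the mean over chips without matching was -17.4. In level, the median HES1 of ligand-positive cells was 274 CPM at day 60 against 993 in the others, and 289 against 590 at day 90. On chip b the medians were 869 and 941 CPM, and on chip a they were the other way round, 360.1 and 188.

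Cells were then sorted by whether they had at least 5 reads of HES1, of HES6, of both or of neither. Cells with HES1 only made up 45.8% at day 60, 54.2% for day 90, 49.4% for chip a and 61.9% for chip b. Cells with both went from 23.2% and 14.0% at day 60 and day 90 to 2.81% for chip a and 9.45% for chip b. Cells with HES6 only made up 11.4%, 10.2%, 7.87% and 7.09%, so the share with both differed more between days than the share with HES6 only. By class, 46.7% of mitotic-like cells held both, against 17.6% of Müller glia-like and 20.5% of cone-like cells. HES6 without HES1 was found in 35.7% of cone-like and 23.1% of VSX1-led cells, and in 0.234% of Müller glia-like cells.

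On 3 of the 4 chips the Delta ligands were most frequent where HES6 stood without HES1, and at day 90 cells with both were slightly ahead. At day 60, 57.6% of 66 such cells (44.8 to 69.7) had a read of DLL3 or DLL4, against 15.8% (11.7 to 20.8) of the 265 cells with HES1 only, 27.6% (20.2 to 35.997) of those with both and 17.7% (11.2 to 26.003) of those with neither. At day 90 the share was 25.4% (15.5 to 37.5) with HES6 only, 27.2% (18.4 to 37.4) with both and 13.2% (9.89 to 17.2) with HES1 only. On chip a it was 14.3% with HES6 only and 9.66% with HES1 only, and on chip b 25.9% and 15.7%, with intervals that overlapped. The order of HES6 only above HES1 only was the same on all 4 chips, but the intervals were apart at day 60 only. JAG1 had the opposite order on all 4 chips, with 13.6% in cells with HES1 only and 9.09% in cells with HES6 only at day 60, and 27.5% and 11.1% on chip b, with intervals that overlapped at both.

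**Figure D5:**
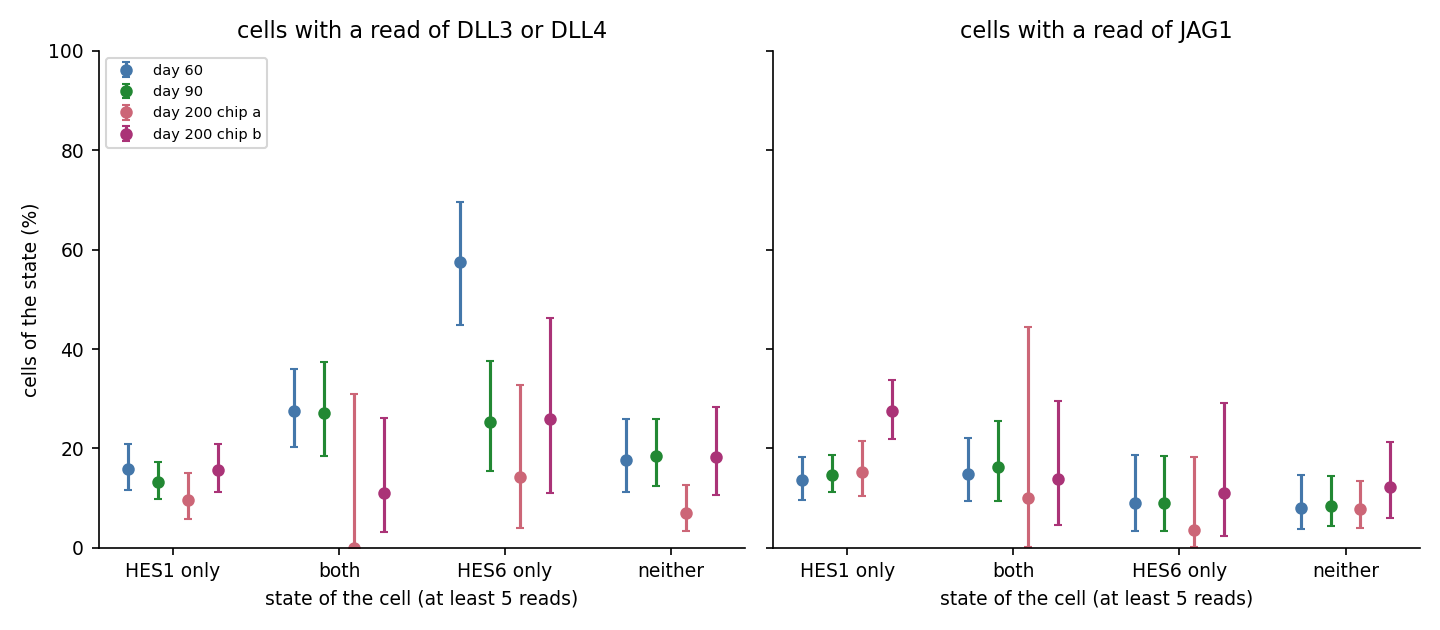
Share of cells (y axis, percent) with a read of DLL3 or DLL4 (left) or of JAG1 (right) by state of the cell (x axis, HES1 only, both, HES6 only or neither at 5 reads or more), with a point per chip and exact binomial 95% intervals. The day 60 point of HES6 only stands at 57.6% on the left, above the other states of that chip, while on the right the states of a chip lie closer together.

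Proneural factors were read in the same cells, as the known inducers of Delta ligands and HES6. NEUROD1, which drives photoreceptor and amacrine fates, was in 56.2% of ligand-positive cells and 26.1% of the others at day 60, a difference of 30.1 percentage points (20.7 to 39.04), and the difference was above 0 on all 4 chips, between 3.94 and 30.1. Matched within class and chip it was 12.2. INSM1, a zinc finger factor of new neurons, was in 31.4% against 11.3% at day 60, and ATOH7, the factor that makes cells able to become ganglion cells, in 24.8% against 7.48%.

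JAG1-positive cells were compared in the same way. Their share with DLL3 differed from that of other cells by -3.57 to 6.81 percentage points on the 4 chips, with every interval around 0. They held HEY1 more often on 3 chips, with differences of 18.2 percentage points (8.41 to 29.1) at day 90, 14.0 (3.15 to 29.2) for chip a and 12.9 (2.43 to 24.4) for chip b, and -1.58 (-7.45 to 7.87) at day 60. Matched within class and chip the HEY1 difference was 9.16 over 279 JAG1-positive cells. Within IGFBP6-led cells, HEY1 was in 44.8% of 67 JAG1-positive cells and 23.7% of 114 others, a difference of 21.1 (6.90 to 34.8). In the other 4 classes compared the intervals held 0, with differences of 7.58 in cone-like, 6.99 in Müller glia-like, 3.78 in GDF15-led and -2.67 in VSX1-led cells. HES1 was more frequent in JAG1-positive cells on all 4 chips, by 3.62 to 15.4 percentage points, with intervals that held 0 at day 60 and day 90, and by 2.08 when matched. HES6 was less frequent on all 4, by 2.35 to 12.3 percentage points, with an interval apart from 0 on chip b only.

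Across the cells of a chip, correlations of log2(reads + 1) at 50000 reads are given as descriptions over 356 to 655 cells that share a chip and its libraries. Between DLL3 and HES1 the mean over the 4 chips was -0.11 (-0.16 to -0.06 over chips), and HES1 was the lowest of 8351 genes compared with DLL3. Between DLL3 and HES6 it was 0.13 (0.05 to 0.23), between NOTCH1 and HES1 0.20 (0.12 to 0.28), between NOTCH3 and HES1 0.19 (0.13 to 0.23), and between HES1 and HES6 -0.14 (-0.20 to -0.07). Within the Müller glia-like class alone the DLL3 and HES1 value was 0.05 and the NOTCH1 and HES1 value 0.02. Values this weak in sparse counts carry little, and those of HES1 with each receptor were near 0 within that class.

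The genes most like each member were ranked by the same measure. For HES1 they were IFITM3 at 0.56, VIM at 0.56 and ZFP36L1 at 0.55, where IFITM3 and VIM are also in the Müller glia marker list, as are DKK3 and CLU below, and SCG3, a protein of secretory granules, was the lowest at -0.41. For HES6 they were NEUROD1 at 0.30, CKB at 0.28 and SEPT4 at 0.28. For NOTCH1 the first was SOX2 at 0.26, followed by DKK3 at 0.23 and MIAT at 0.23, and for NOTCH3 HES1 came first at 0.19, before VIM at 0.18 and SOX2 at 0.16. The leading genes of the other members stayed under 0.18. They were CADPS, SEPT4 and RRAD for DLL3, ZC3H12C, SOX2 and FRYL for DLL4, LAMP5, NES and ATP2B4 for JAG1, and CLU, CREB5 and BTG2 for HEY1.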

How the data were processed

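Single cells of H9 CRX-GFP retinal organoids were measured on 4 Fluidigm C1 chips with the SMART-Seq v4 kit and Nextera XT libraries. The deposited table holds raw counts of reads per gene and cell, which the authors made with Trimmomatic 0.33, STAR 2.4.0 on GRCh38.p7 and HTSeq 0.6. Their own filters on cells and genes followed, and the cell filters on total reads and spike reads differed between days. The counting parameters given name no strand setting. A second deposited file holds other values, the names that tie each cell to a chip column. The GFP-Spike row (0.0048% of reads) names no gene and was left out of library sizes.

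Reads were summed per chip, column or class and given as CPM. Cells were thinned to 50000 reads with a fixed seed, which left out 6 cells of day 90. Ligand-positive was planned as a read of DLL1, DLL3 or DLL4, and DLL3 or DLL4 was used, since DLL1 was not analysed here. Clusters were found in Seurat 5.3.0 under R 4.3.3 with CCA alignment of the days, 1000 variable genes per day, 20 dimensions and a resolution of 0.6, with the Notch genes left out. Clusters were named from the study's marker lists without HES1, with at least 3 markers at 2-fold in 20% of cells and 1 among the top 10 genes, thresholds taken from an earlier analysis of these data and, where several clusters matched a list, only the one with the most markers was named. Doublets were called with scrublet in scanpy 1.11.5, and 28 cells were called. They were kept unless stated. Tables were made with Python 3.11.15, pandas 2.3.3, numpy 2.4.6 and scipy 1.17.1, and figures with matplotlib 3.10.9.

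The members and lists were chosen with earlier results of these data known. Named genes were the members, the 3 largest rises and falls of the other pathway genes from day 60 to the nearer day 200 chip, the 3 genes most like each member, and proneural factors where ligand-positive cells were described. HES4, NEURL1 and PSENEN were named after their values were seen. Gene positions are from GENCODE 44. The steps were tested on simulated data. HES5, DLL1 and 3 genes of the wider list were not analysed here. Some of the proneural factors are not reported here.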

Additional observations from a re-analysis of the deposited data

Results flagged for a closer look

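The GFP-Spike row was left out of the main comparisons and entered library sizes in an alternative setting only. The row held 15976 reads on chip a and 3515 reads on chip b of day 200, above the limit that a count of 0 allows. It held 0 reads at day 60 and day 90. What the row counts is not stated in the sources used here.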

How the results depend on the processing

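Scaling by TMM factors or median-of-ratios size factors, adding the GFP-Spike row, dropping doublets, averaging over cells, an offset of 5 CPM, the stricter cell filter (1304 cells) and leaving out a day 200 chip left the sign of every member's ratio between days as it was, except for HES1 at day 200, which ranged from -0.17 to 0.18. The number of members at least 2-fold higher at day 90 was 0 with the stricter filter, and at day 200 it was 0 with an offset of 5 CPM. With a day 200 chip left out, the fold had to be passed on the other chip only. This gave 1 to 2 members higher and 1 to 2 lower, 7 to 8 pathway genes higher and 3 to 5 lower. Without chip a JAG1 was added, and without chip b NOTCH3. Pathway genes lower at day 90 numbered 4 as a mean over cells, and those higher at day 200 numbered 3 with the offset of 5 CPM. The shares of all genes given above belong to the main setting with both day 200 chips. The counts under other settings therefore have no background beside them and are not read as results. With at least 5 reads, the ligand-positive share differed between day 200 and day 60 by -5.99 percentage points and the HES1 difference between ligand-positive and other cells was -17.4 in place of -1.20. With at least 5 reads within class and chip, an alternative chosen after seeing the data, the HES1 and HES6 differences were -2.28 and 18.1. The HES6 difference was between 8.33 and 19.7 in all other settings tried. With 30 dimensions, HES6 in mitotic-like and cone-like over Müller glia-like cells was 5.70 and 5.58 on the log2 scale, in place of 2.16 and 2.03. No paired analysis was possible because the days share no replicate numbers from common cultures and no test was made. The depth of 50000 reads limits DLL3 and DLL4, where the cells with a read are few. Whether 1 read is background was not settled, since the background share was assumed from RPE-like cells.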
